A study of Saccharomyces cerevisiae S288C with 8 samples.

Results

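The 38 genes described here encode the structural proteins of the budding yeast kinetochore, and they were examined as places where Cse4 itself was found on chromatin. They are all of the listed subunits of the CBF3, Ctf19/CCAN, Mtw1, Spc105, Ndc80 and Dam1 complexes together with CBF1, out of 6002 nuclear protein-coding genes in the R64 annotation. A gene was counted as a Cse4 target locus where at least 1 bp of a deposited peak lay in its coding region or in the 500 bp upstream of its start codon. Cse4 ChIP-seq was performed in 4 strains, each with 1 ChIP library and 1 input library. The cdc7-7 OE Cse4 and wild-type OE Cse4 strains carry GAL-CSE4-FLAG, a tagged Cse4 driven by a galactose-inducible promoter, and were grown in raffinose/galactose. The cdc7-7 endogenous Cse4 and wild-type endogenous Cse4 strains express Cse4 from its own promoter, carry the genotype label CSE4-HA and were grown in glucose. All 4 strains were grown for 1.75 hr in these media and cross-linked with 1% formaldehyde for 20 min. The study's text calls the endogenous protein Flag-Cse4, and an anti-FLAG gel was used in all 4 immunoprecipitations. Expression and medium changed together between the OE and endogenous strains, so their parts in any difference cannot be told apart. cdc7-7 is a temperature-sensitive allele of CDC7, which encodes the kinase subunit of DDK. By the study's text, the ChIP-seq cultures were grown at the permissive temperature of this allele.

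The kinetochore is assembled on the point centromere, where a Cse4 nucleosome replaces the one containing histone H3. Cbf1 binds the CDEI element of the centromere and CBF3 binds CDEIII. The Ctf19 complex, which corresponds to the constitutive centromere-associated network (CCAN) of vertebrates, contacts the Cse4 nucleosome and the centromeric DNA. The Mtw1, Spc105 and Ndc80 complexes link this inner layer to microtubules, and the Dam1 complex forms a ring that couples the kinetochore to the growing or shrinking microtubule end. The genes that encode these proteins lie on the chromosome arms and are not part of the centromere. None of the peaks described at them overlapped a centromere, and the member nearest to one, DSN1, lies 19.7 kb from it.

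Because there was 1 ChIP library per strain, no difference between strains could be set against a replicate error, and no p-value between strains is given. The value at each peak is the authors' fold enrichment at the summit, which MACS forms as the ChIP pileup plus 1 over the local background plus 1. The pileup, in whole fragments, and its background were recovered from the fold enrichment and the -log10 p. The lists hold 2203 peaks for cdc7-7 OE Cse4, 46 for wild-type OE Cse4, 183 for cdc7-7 endogenous Cse4 and 811 for wild-type endogenous Cse4. Of these, 15, 16, 16 and 16 overlap a centromere, with median fold enrichments of 2.55, 5.18, 8.58 and 5.45. In that order the median background was 142, 38.1, 71.7 and 195 fragments. It was taken at the listed peaks only, which differ between lists, and serves below as a stand-in for library depth. Intervals on pileups and fold enrichments are exact 95% Poisson intervals and cover counting error in the ChIP library only.

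The DNA under the summits is shown first for the 4 genes with the highest fold enrichment in cdc7-7 OE Cse4 and for MCM16, which had the lowest. Each line holds 30 bases of R64 on the strand of the gene, and the capital marks the base that the authors' list gives as the summit.
SPC25, chrV:192519-192548, minus strand, inside the coding region: cacgtcagcaaaacCacgcgcgccaacagc
NKP2, chrXII:764685-764714, plus strand, upstream of the start codon: gagaaacagcgaaaaAcaacgaagatcgtt
DUO1, chrVII:389798-389827, minus strand, upstream of the start codon: taattacaaacaaaCgccaaaatcaaacgc
AME1, chrII:647386-647415, minus strand, upstream of the start codon: aatacaagtttgggGaacgctttttggaac
MCM16, chrXVI:656666-656695, plus strand, upstream of the start codon: actcaaaaattccaaAccgtgaaggatgat
At 3 members the summit fell within 14 bp of the start codon, which is in capitals in the next lines.
IML3, chrII:454516-454545, minus strand: cttcctttggatggaATGccttatacttgg
NUF2, chrXV:198941-198970, plus strand: aATGagtaggaatcaagatgtgttccccat
NSL1, chrXVI:106166-106195, plus strand: gagaagATGtcacaaggtcagtccaaaaaa
Base composition at the summits was close to that of the list as a whole. Over the 151 bases centered on the summit, the median A and T content was 59.6% for the 25 summits at kinetochore genes, from 46.4% at SPC25 to 69.5%. It was 60.3% for all 2188 peaks of the list outside centromeres and 61.7% for the nuclear genome.

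In cdc7-7 OE Cse4, 24 of the 38 kinetochore genes had a Cse4 peak (63.2%, 95% Wilson interval from 47.3% to 76.6%), against 51.4% of all genes. The interval covers counting error and treats genes as independent. In wild-type OE Cse4, no kinetochore gene had a peak, against 0.9% of all genes. In cdc7-7 endogenous Cse4, 1 kinetochore gene (2.63%) had a peak, against 3.77% of all genes, and in wild-type endogenous Cse4, 4 did (10.5%), against 16.8% of all genes. In each of the 4 lists the Wilson interval of the members included the share of all genes. The counts under this rule thus did not distinguish the kinetochore genes from all genes. In cdc7-7 OE Cse4 this depended on the rule. Where only the upstream region was counted, 24 members again had a peak, and the 47.0% of all genes lay just below that interval. Where only the coding region was counted, the members were at 55.3%, against 37.9% of all genes. In cdc7-7 OE Cse4 the members were at 60.5% against 41.0% where the summit had to be in the window. They were at 60.5% against 41.3% where 50% of the peak did, and at 57.9% against 35.6% with the nearest start codon. Over 12 settings in that list, the members were above the share of all genes in 10 and below it in 2. No separate interval was computed for the alternatives. For the single gene in cdc7-7 endogenous Cse4, the members were above the share of all genes under 3 of the alternatives, with 2.63% against 1.67% where only the upstream region was counted, against 2.62% where the summit had to be in the window and against 2.50% where 50% of the peak did. Among genes at least 25 kb from a chromosome end, a set chosen after seeing the data that includes all 38 members, the share of all genes in cdc7-7 OE Cse4 was 53.0%.

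**Figure D1:**
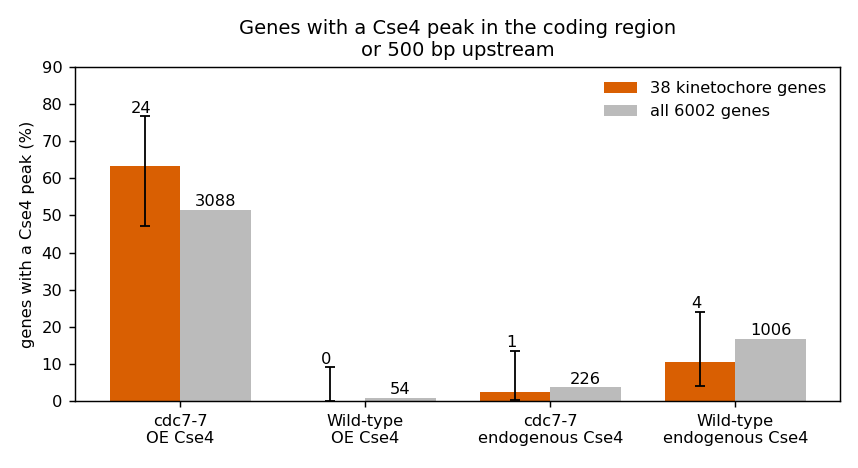
Percent of the 38 kinetochore genes (orange) and of all 6002 genes (gray) with a Cse4 peak in the coding region or the 500 bp upstream, in each of the 4 lists. Numbers over the bars are gene counts and error bars are 95% Wilson intervals. The 24 kinetochore genes of cdc7-7 OE Cse4 stand against 0, 1 and 4 in the other lists.

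The peaks at kinetochore genes in cdc7-7 OE Cse4 were of ordinary height for that list. The 24 genes held 25 peaks, with a median fold enrichment of 1.50 and a range from 1.30 to 1.99, against a median of 1.53 for all 2188 peaks outside centromeres. Of the 25, 11 were above that median, and none reached a fold enrichment of 2, which 2.52% of all genes did. The weakest centromere peak of the same list had a fold enrichment of 1.89, and SPC25 alone was above it. Pileups ran from 177 to 359 fragments over backgrounds from 121 to 180 fragments. With a minimum -log10 q of 5, 18 of the 38 genes (47.4%) kept a peak, against 38.4% of all genes.

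Among the DNA-binding factors, CBF1 (chromosome X, 548759 to 549814), whose protein also regulates methionine genes, had a peak with its summit 127 bp upstream of the start codon. The pileup there was 215 fragments over a background of 144, a fold enrichment of 1.49 (1.30 to 1.71). In CBF3, CBF2 and CEP3 had a peak and CTF13 and SKP1 did not. CBF2, also known as NDC10, encodes the scaffold that bends centromeric DNA, and its summit lay 146 bp upstream with 234 fragments over 149 (fold enrichment 1.56). CEP3 encodes the zinc cluster protein that reads CDEIII, and its summit lay 143 bp upstream with 232 fragments over 149 (1.56). These 3 summits lay at similar distances upstream, with fold enrichments from 1.49 to 1.56 and overlapping counting intervals. SKP1, which encodes a subunit shared with SCF ubiquitin ligases, was the nearest miss of all 38 genes. A peak of fold enrichment 1.90 ends 145 bp beyond the 3′ end of its coding region.

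Of the 13 genes of the Ctf19/CCAN group, 9 had a peak in cdc7-7 OE Cse4 (69.2%, against 51.4% of all genes). NKP2, which encodes a nonessential subunit, and AME1, which encodes a subunit that binds Mtw1 and is a member of the COMA complex, were the highest. NKP2 (chromosome XII, 764808 to 765269) had 328 fragments over 174, a fold enrichment of 1.88 (1.69 to 2.10), in a peak of 1189 bp that runs from the coding region of CDC3 into its own. AME1 (chromosome II, 646158 to 647132) had 226 fragments over 131, a fold enrichment of 1.72 (1.50 to 1.95), with the summit 269 bp upstream. Their counting intervals overlap. The other subunits of COMA differed in their calls, with a peak at CTF19 (fold enrichment 1.46) and MCM21 (1.57) and none at OKP1. The summit near CTF19 lay 417 bp upstream and was closer to the start codon of VTC3 on the other side of the intergenic region. MIF2, the yeast CENP-C gene, had its summit 47 bp inside the coding region at a fold enrichment of 1.55. MCM16 and MCM22, which encode partners of Ctf3, had fold enrichments of 1.30 and 1.45, whereas CTF3 had no peak. IML3 had a fold enrichment of 1.40 at its start codon, whereas CHL4, the gene of its binding partner, had none. CNN1, the yeast CENP-T gene, had no peak. NKP1 had a fold enrichment of 1.39, in the only one of the 25 peaks that overlaps an annotated replication origin. The 9 values run from 1.30 to 1.88. Some partners shared a call, with overlapping counting intervals at CTF19 and MCM21 and at MCM16 and MCM22, whereas OKP1, CTF3 and CHL4 had no peak although a partner did.

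In the outer kinetochore, the 4 genes of the Ndc80 complex, which binds the microtubule lattice, each had a peak in cdc7-7 OE Cse4, against 51.4% of all genes. SPC25 (chromosome V, 191959 to 192624) had the highest fold enrichment of all 38 genes, with 359 fragments over a background of 180, or 1.99 (1.79 to 2.20). It ranked 84 among the 2188 peaks outside centromeres. Its peak covers 838 bp and has its summit 90 bp inside the coding region, where the neighboring ISC1 and AFG3 are also reached by the peak. NDC80 had 2 peaks. That at the start of its coding region had a fold enrichment of 1.39 with its summit 26 bp inside, and the other had its summit at the divergent neighbor PAN6. NUF2 had 1.46 and SPC24 had 1.44, so that SPC25 stood above the other genes of its complex, with a counting interval that overlaps none of theirs. SPC24 shares its summit with the coding region of SHH3. At a -log10 q of at least 5, the peaks at NDC80 and SPC24 were lost.

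In the Mtw1 complex, NSL1 and NNF1 had a peak and MTW1 and DSN1 did not. The NSL1 peak is 1129 bp wide, with its summit 9 bp inside the coding region and a fold enrichment of 1.61. NNF1 was counted through a peak of 2932 bp whose summit lies in RSM7, 1885 bp past the NNF1 start codon, and is therefore not a peak of NNF1 alone. In the Spc105 complex, SPC105, which encodes the platform for the spindle checkpoint proteins, had a fold enrichment of 1.57 with its summit 81 bp upstream, and KRE28 had no peak. Of the 10 genes of the Dam1 complex, DUO1, ASK1, DAD4, DAM1 and SPC19 had a peak. DUO1 was the highest of them with 253 fragments over 141, a fold enrichment of 1.79 (1.58 to 2.02), and its summit lay 102 bp upstream. The others ran from 1.37 at SPC19 to 1.62 at ASK1. DAD1, DAD2, DAD3, SPC34 and HSK3 had none. In all, 5 of the 7 groups had members with and without a peak, the exceptions being the 4 Ndc80 genes and CBF1 on its own. The share with a peak was 69.2% in Ctf19/CCAN and 50% in each of CBF3, Mtw1, Spc105 and Dam1, against 51.4% of all genes. With groups of 1 to 13 genes, no difference between the complexes and all genes was tested.

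**Figure D2:**
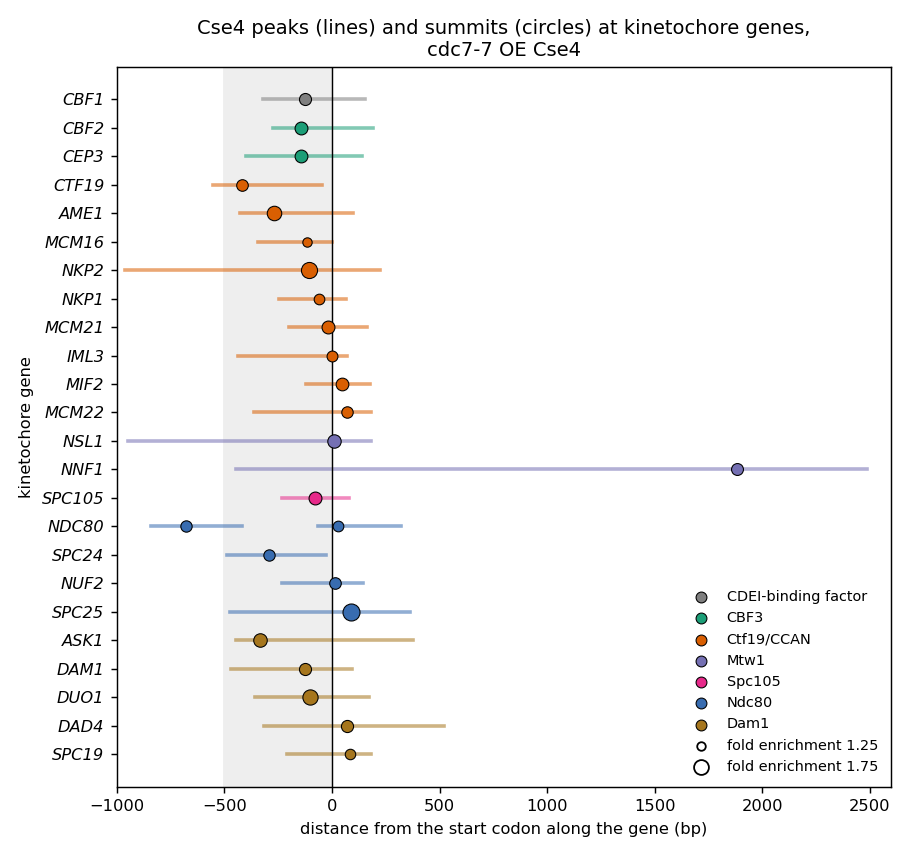
Peaks (lines) and summits (circles) of cdc7-7 OE Cse4 at the 24 kinetochore genes with a peak, by distance in bp from the start codon along the gene, with the 500 bp upstream shaded. Color gives the complex and circle area the fold enrichment above 1. Most summits lie within 150 bp of the start codon, and those of NNF1 and 1 of the 2 peaks at NDC80 lie outside the gene's window.

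The summits clustered around the start codons. The bound of 150 bp used here was not set out in advance. Counted from the first base of the start codon, 19 of the 25 summits (76.0%) lay within 150 bp on either side, against 34.7% of the 3310 pairs of a gene and a peak over the whole list. Of the 25, 15 (60.0%) lay in the 500 bp upstream, against 55.3% of all pairs, and 8 lay inside the member's own coding region. For 22 of the 25 (88.0%) the nearest start codon was that of the kinetochore gene, against 62.6% of all pairs, the exceptions being the peaks near CTF19 and NNF1 and that beside PAN6. Kinetochore genes are shorter than others, with a median coding span of 884 bp against 1200 bp, and have shorter upstream intergenic regions, with a median of 315 bp against 448 bp. The part of these lengths in the position of the summits was not tested. When each peak was given only to the gene with the start codon nearest to its summit, 22 kinetochore genes (57.9%) had a peak, against 35.6% of all genes.

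Kinetochore genes with and without a peak differed in the orientation of the upstream neighbor. The splits by orientation and by length of the upstream region were not set out in advance. A gene is divergent where its upstream neighbor is transcribed away from it, so that the intergenic region holds both promoters, and tandem where the neighbor points toward it. Of the 18 divergent members, 17 had a peak in cdc7-7 OE Cse4 (94.4%), and CHL4 was the exception. Of the 20 tandem members, 7 had a peak (35.0%), namely CBF1, CEP3, MIF2, MCM21, NKP1, SPC24 and DAM1. Over all genes the shares were 57.0% of 3120 divergent and 45.6% of 2873 tandem genes. The direction was that of all genes, and the gap between the orientations was wider among the members. That difference in gaps was not tested. Of the 25 peaks, 19 were also counted at another gene. At divergent members all were shared except those at CBF2 and at the start of NDC80. At tandem members those at CEP3, DAM1 and SPC24 were shared, and those at CBF1, MIF2, MCM21 and NKP1 were not. The part of shared peaks in the orientation counts was not tested. Length of the upstream region followed the calls less closely, with 10 of 18 members having a peak where it was at most 300 bp (49.1% of all genes), 7 of 12 above 300 and up to 600 bp (51.3% of all genes), and 7 of 8 above 600 bp (53.8% of all genes). The median A and T content of the 500 bp upstream was 62.3% for members with a peak and 64.5% for those without, against 63% and 64% for all genes with and without a peak.

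**Figure D3:**
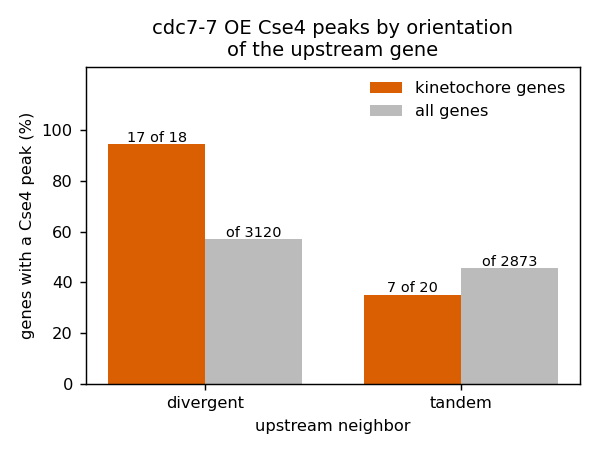
Percent of kinetochore genes (orange) and of all genes (gray) with a peak in cdc7-7 OE Cse4, by the orientation of the upstream neighbor. Among members, 17 of 18 divergent and 7 of 20 tandem genes had a peak.

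Among the 14 members without a peak in cdc7-7 OE Cse4, the gene's window was 145 bp from the nearest peak at SKP1, 361 bp at DSN1, 578 bp at SPC34 and 712 bp at OKP1. For CTF13, CHL4, CTF3, CNN1, MTW1, KRE28, DAD1, DAD2 and DAD3 the distance ran from 964 to 2711 bp, and HSK3 was the farthest at 5767 bp. With an upstream window of 1000 bp, DSN1 was added and no other, so that 25 members had a peak, against 55.9% of all genes.

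Whether the absence of peaks at kinetochore genes in wild-type OE Cse4 could be read as an absence of Cse4 was examined from the depth of the library. The wild-type OE Cse4 library had 26.9% of the median background of the cdc7-7 OE Cse4 library, and the weakest peak in its list had a -log10 p of 4.09 and the lowest fold enrichment was 1.63. When the pileup and background of each cdc7-7 OE Cse4 peak were multiplied by that ratio, the peaks at SPC25, NKP2, DUO1 and AME1 still passed the -log10 p of 4.09, with 9.27, 7.62, 5.46 and 4.52. The remaining 20 genes did not pass, with ASK1 the nearest at 3.83. The 4 genes are 10.5% of the members, against 17.1% of all genes under the same scaling. At the other 20 genes, enrichment of the size seen in cdc7-7 OE Cse4 fell below the weakest peak listed for wild-type OE Cse4 after this scaling. That value is not a detection limit at a given gene, and counting error was not carried into the scaling. After scaling, DUO1 and AME1 had 68 and 61 fragments, against 60 at ASK1, which did not pass. Genes near the cutoff, such as DUO1, AME1 and ASK1, therefore cannot be sorted. At those 20 genes the missing call cannot be told apart from lower depth. A difference between the strains is stated as a difference in calls only at SPC25 and NKP2, with counting error left out.

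**Figure D4:**
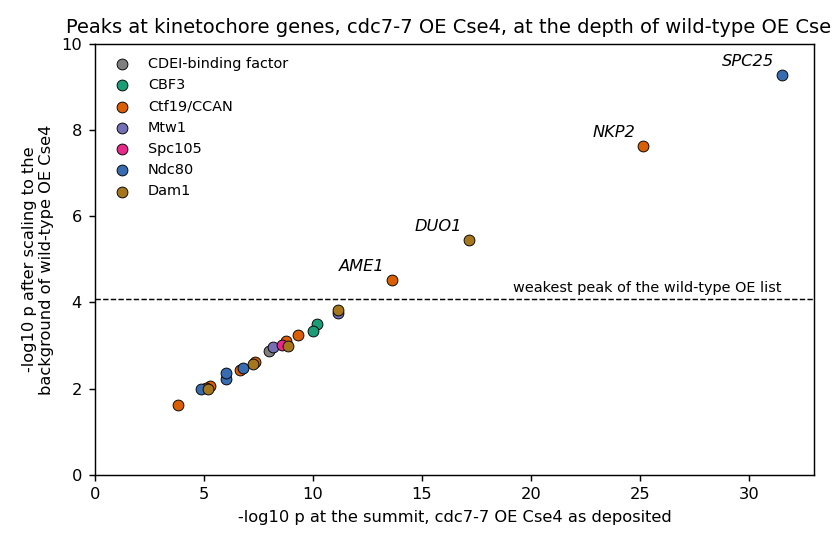
The -log10 p at the summit of the 25 peaks at kinetochore genes in cdc7-7 OE Cse4, as deposited (horizontal axis) and after scaling pileup and background to the depth of wild-type OE Cse4 (vertical axis). The dashed line is the weakest peak of the wild-type OE Cse4 list at 4.09, and SPC25, NKP2, DUO1 and AME1 lie above it.

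The wild-type endogenous Cse4 library had the highest median background of the 4, and its list reached down to a fold enrichment of 1.18, below the 1.30 of the weakest peak at a kinetochore gene in cdc7-7 OE Cse4. Neither value is a detection limit at a given gene, which was not tested. Wild-type endogenous Cse4 had peaks at NKP1, NKP2, SPC25 and ASK1 only, with fold enrichments of 1.34, 1.26, 1.26 and 1.44. The peak at NKP1 has its summit in RPP2B, a ribosomal stalk protein gene downstream of NKP1, and does not overlap the cdc7-7 OE Cse4 peak at its promoter. The other 3 overlap the cdc7-7 OE Cse4 peak at the same gene. The local background was high at SPC25 and NKP2. It was 180 fragments at SPC25 and 174 at NKP2 in cdc7-7 OE Cse4 against the list median of 142, and 259 and 213 fragments in wild-type endogenous Cse4 against 195. The part of this background in the peaks was not tested.

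ASK1, which encodes a Dam1 complex subunit phosphorylated by Cdk1, was the only kinetochore gene with a peak in 3 lists. Its upstream region of 765 bp on chromosome XI is shared with the divergent gene SFK1. In cdc7-7 OE Cse4 the summit was 334 bp upstream with 222 fragments over 136, a fold enrichment of 1.62 (1.42 to 1.85). In cdc7-7 endogenous Cse4 it was 281 bp upstream with 104 fragments over 61.6, a fold enrichment of 1.68 (1.37 to 2.03), and in wild-type endogenous Cse4 it was 269 bp upstream with 259 fragments over 179, a fold enrichment of 1.44 (1.27 to 1.63). No peak was listed in wild-type OE Cse4. The counting intervals of the 3 fold enrichments overlap, and the 3 peaks overlap one another. The summits in the endogenous strains lay closer to each other than to that in cdc7-7 OE Cse4, as the following lines show for 30 bases on the strand of ASK1 with the summit base in capitals.
ASK1, cdc7-7 OE Cse4, chrXI:340865-340894: tagtcttcattgatAatcttgggccttatc
ASK1, cdc7-7 endogenous Cse4, chrXI:340812-340841: tggaaatgcgatatGtccggtgcgtcatag
ASK1, wild-type endogenous Cse4, chrXI:340800-340829: atgtccggtgcgtcAtagaggaacggaggc
ASK1 was also the only member whose wild-type endogenous Cse4 peak still passed after scaling to 36.8% of the median background of its list. The cutoff was the weakest -log10 p of the cdc7-7 endogenous Cse4 list, 3.29, and 8.36% of all genes kept a peak under the same scaling.

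Other genes of chromosome segregation were counted by the same rule. In cdc7-7 OE Cse4, 29 of these 41 genes had a peak (70.7%), against 51.4% of all genes, and in wild-type OE Cse4 none had. The cohesin subunit and loader genes had a peak at 7 of 7, the spindle microtubule genes, which encode motors and plus-end proteins, at 8 of 9, the chromosomal passenger genes at 3 of 4, the group of CSE4, its chaperone gene SCM3, PSH1 and WIP1 at 3 of 4, the spindle pole body genes at 5 of 10 and the spindle checkpoint genes at 3 of 7. These counts include peaks centered elsewhere. When a peak was given only to the gene with the nearest start codon, cohesin and loader genes had a peak at 4 of 7, spindle microtubule genes at 4 of 9 and chromosomal passenger genes at 1 of 4. The group of CSE4 had a peak at 3 of 4, spindle checkpoint genes at 3 of 7 and spindle pole body genes at 4 of 10. Under that rule 35.6% of all genes had a peak. The summits counted at the cohesin and loader genes IRR1 and SCC4 lay 3733 and 2899 bp past the start codon, and that at MCD1 lay 770 bp upstream. Only CSE4, SCM3, STU1 and MCD1 had a peak in more than 1 list, the other being wild-type endogenous Cse4. The MCD1 peaks of these lists lie at different places, with the wild-type endogenous Cse4 summit 1689 bp past the start codon. The wild-type endogenous Cse4 peak counted at CSE4 has its summit 936 bp past the start codon, outside the window of CSE4 and nearest to the start codon of LPX2. The CSE4 peak in cdc7-7 OE Cse4 was the lowest of the 2188 outside centromeres, with a fold enrichment of 1.10, and its pileup was not solved. In wild-type endogenous Cse4 the background at the CSE4 peak was 351 fragments, against the list median of 195. The strains carry a tagged or galactose-driven CSE4, and the part of this in the peaks at CSE4 was not tested. SCM3 had a fold enrichment of 1.51 in cdc7-7 OE Cse4 and 1.36 in wild-type endogenous Cse4, and STU1 had 1.39 and 1.38 in the same lists. No test was made between these genes, the kinetochore genes and all genes.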

How the data were processed

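ChIP-seq of Cse4 in 4 strains was analysed from the deposited peak lists, 1 per ChIP library against its own input. As the study's methods state, the authors aligned paired reads to S288C R64 with Bowtie 1.0.0, removed duplicates with Samtools, down sampled the inputs and ran MACS on read pairs with its default q of 0.05. The deposited values are the fold enrichment over local background (a ratio with a pseudocount of 1), the -log10 p and -log10 q, and a score that restates the q. Duplicate removal counts identical fragments once, which caps the pileup at strong sites. The 38 members and all gene lists were chosen with earlier results of these data known.

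Coding spans, introns included, came from the RefSeq R64 annotation, and a minimum overlap of 1 bp was required. Positions are 1-based. Pileup and background were solved from the fold enrichment and -log10 p, where the best whole number missed by less than 0.1 of the next best. This left 2, 1, 1 and 1 peaks unsolved in cdc7-7 OE, wild-type OE, cdc7-7 endogenous and wild-type endogenous Cse4, none at a member. The solver and the overlap count were tested on simulated data. All 38 genes are named, with other segregation genes named where 2 or more lists have a peak. The alternatives were upstream windows of 250 and 1000 bp, either part of the window alone, the summit, the nearest start codon or 50% of the peak in the window, a -log10 q of at least 5, a fold enrichment of at least 2, no centromere peaks, scaled depth, a fold without pseudocount and the strongest peak per gene. Python 3.11.15, numpy 2.4.6, pandas 2.3.3, scipy 1.17.1 and matplotlib 3.10.9 were used. With 1 library per strain there was no test between strains.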

Additional observations from a re-analysis of the deposited data

How the results depend on the processing

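The count of kinetochore genes with a peak in cdc7-7 OE Cse4, 24, ran from 18 to 25 over the alternatives other than a minimum fold enrichment of 2, which left 0, and scaling to the depth of wild-type OE Cse4, which left 4. Both also put the members below the share of all genes, with 0% against 2.52% and 10.5% against 17.1%. Over the other alternatives the share of all genes ran from 35.6% with the nearest start codon (members 57.9%) to 55.9% with 1000 bp upstream (members 65.8%). In wild-type OE Cse4 the count was 0 under every alternative run, against 0.48% to 1.05% of all genes. In cdc7-7 endogenous Cse4 the count of 1 became 0 with a -log10 q of at least 5 and 0 with a fold enrichment of at least 2. In wild-type endogenous Cse4 the count of 4 became 1 with a -log10 q of at least 5, 0 with a fold enrichment of at least 2 and 1 when scaled to the depth of cdc7-7 endogenous Cse4. The median fold enrichment at the members ran from 1.50 to 1.56 in cdc7-7 OE Cse4, from 1.68 to 1.69 in cdc7-7 endogenous Cse4 and from 1.30 to 1.44 in wild-type endogenous Cse4, where ASK1 alone was left with a -log10 q of at least 5. No paired analysis was possible because each strain has 1 ChIP library and the result comes from no test. Peaks below the authors' threshold were not analysed here.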

Other observations

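The 500 bp upstream of the kinetochore genes were searched on both strands for short motifs of general and cell cycle regulators. The MCB element ACGCGT, bound by the G1/S factor MBF, was in 5 of the 38 upstream regions (13.2%), against 5.41% of all genes, and the SCB element CGCGAAA, bound by SBF, in 8 (21.1%), against 5.81%. Together 13 members (34.2%) had either element, against 10.7% of all genes. They were 6 of the 24 members with a Cse4 peak in cdc7-7 OE Cse4 and 7 of the 14 without. Over all genes the shares were 12.0% of those with a peak and 9.40% of those without. In the 6 members with a peak (CBF2, CTF19, MIF2, NKP1, SPC105 and SPC24) the element lay within the peak, and those of 4 genes are shown in capitals in 30 bases of R64 on the strand of the gene.
NKP1, MCB, chrIV:1240755-1240784, minus strand: ataaaaacgatgACGCGTcacaggggaaaa
MIF2, MCB, chrXI:273287-273316, plus strand: aaaaataatataACGCGTtagaaatggtga
SPC105, SCB, chrVII:334727-334756, plus strand: aaaaaaacaataCGCGAAAgagaaggcgcc
SPC24, SCB, chrXIII:502026-502055, minus strand: cgtagaaggaccCGCGAAAgcagaagaggt
The CDEI forms TCACGTG and TCACATG, to which Cbf1 binds, were in 1 and 0 of the 38 upstream regions, against 4.57% and 3.78% of all genes, and the only match was upstream of CHL4, which had no peak. The Reb1 motif TTACCCG was in 4 (10.5%), against 10.1% of all genes, the Abf1 motif, CGT and ACG separated by 6 bases, in 1 (2.63%), against 3.15%, the Rap1 motif, CACCC and ACA separated by 2 bases, in 0, against 2.23%, and a run of AAAAAAA in 22 (57.9%), against 64.4%. A match describes letters in this window and is not a bound site.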
